A study of Mus musculus with 90 samples.

Results

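The 9 genes described here encode the steps of interferon-gamma (IFNγ) and related cytokine signalling from the receptor to the transcription factors: the receptor chains Ifngr1 and Ifngr2, the Janus kinases Jak1, Jak2 and Tyk2, and the signal transducers Stat2, Stat3, Stat5b and Stat6. They were taken from a table of 53697 genes as the rows whose Ensembl identifier carries one of these symbols, without regard to their values. The table holds counts from 3′ digital gene expression, an assay that counts transcripts at their 3′ ends, in 2 mouse tumour lines, the melanoma line YUMM2.1 and the colorectal cancer line CT26. Each line was cultured either with 50 IU/mL IFNγ or with bovine serum albumin (BSA) and no IFNγ as the control. The groups of a line were BSA controls at 0, 1, 2 and 3 weeks and naive cells given IFNγ for 2 h or 24 h at 0 weeks. The others were cells kept in IFNγ for 1, 2 or 3 weeks and taken with no fresh dose (without rechallenge, 0 h) or at 2 h or 24 h of one. This makes 15 groups of 3 replicate samples per line and 90 samples in all.

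Both lines are single established lines, no gene was edited in any group, and every level is an average over the cells of a culture, in which fewer cells of a type and less RNA per cell cannot be told apart. The labels speak of triplicate experiments and do not say whether replicates came from separate cultures, so the p-values measure only the spread between these samples. Total counts per sample ran from 274719 to 3161276 in YUMM2.1 (median 1403265) and from 295157 to 2205285 in CT26 (median 1318011), and 1 YUMM2.1 and 2 CT26 samples, all of them replicate 3 of an IFNγ group at 0 h, held under 25% of the median of their line. Of 10 melanocyte markers, 8 had counts in YUMM2.1 controls, with S100b the highest and Tyrp1 and Mlana at 0. In CT26 controls 8 had counts too, with Mc1r the highest and Sox10 and Mlana at 0. Their summed level was 126 to 173 CPM in YUMM2.1 and 25.7 to 39.7 CPM in CT26. Of 10 colon and simple epithelium markers, 4 had counts in CT26 controls, with Krt20 the highest, and Epcam, Cdh1, Krt19, Cdx1, Vil1 and Cldn7 were at 0. In YUMM2.1 controls 3 had counts, and the summed level was 56.9 to 74.5 CPM in CT26 and 0 to 2.25 CPM in YUMM2.1. Of 10 leukocyte markers, 6 had counts in YUMM2.1 controls and 6 with IFNγ, and 5 and 6 in CT26, with Cd68 the highest and Cd3e and Adgre1 at 0 throughout. Their summed level ran from 2.36 to 18.7 CPM in controls and from 2.07 to 25.8 CPM with IFNγ in YUMM2.1. In CT26 it ran from 1.27 to 6.21 CPM and from 1.62 to 16.2 CPM. Their part in the results was not tested.

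IFNγ binds the Ifngr1 chain, and the Ifngr2 chain completes the receptor. Jak1 is attached to the first chain and Jak2 to the second, and these kinases phosphorylate the receptor and the STAT proteins that dock on it, which then enter the nucleus and bind DNA. Tyk2 and Stat2 are best known from the type I interferon receptor, where Stat2 joins Irf9 in a complex that binds the interferon-stimulated response element (ISRE), while STAT dimers bind the gamma-activated site (GAS). Stat3, Stat5b and Stat6 are the usual factors of the interleukin-6, growth hormone and interleukin-4 families, and STAT genes are themselves among the genes that interferons can switch on.

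The promoters of Stat2 and Stat3 are printed because these were the members whose counts changed most often. Each run covers 250 bases before to 50 bases after the start site in RefSeq, build GRCm38.p6, 5′ to 3′ on the strand of the gene, and capitals mark a match to the ISRE letters, which are TTTC, any 2 bases and TTTC. The Stat2 promoter lies at chr10:128270248-128270547 on the plus strand and the Stat3 promoter at chr11:100939491-100939790 on the minus strand.
Stat2: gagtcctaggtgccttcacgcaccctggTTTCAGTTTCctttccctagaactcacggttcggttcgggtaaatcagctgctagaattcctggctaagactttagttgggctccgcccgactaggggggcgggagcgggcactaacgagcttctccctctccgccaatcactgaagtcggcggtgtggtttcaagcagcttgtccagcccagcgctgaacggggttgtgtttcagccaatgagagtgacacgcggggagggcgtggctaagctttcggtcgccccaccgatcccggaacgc
Stat3: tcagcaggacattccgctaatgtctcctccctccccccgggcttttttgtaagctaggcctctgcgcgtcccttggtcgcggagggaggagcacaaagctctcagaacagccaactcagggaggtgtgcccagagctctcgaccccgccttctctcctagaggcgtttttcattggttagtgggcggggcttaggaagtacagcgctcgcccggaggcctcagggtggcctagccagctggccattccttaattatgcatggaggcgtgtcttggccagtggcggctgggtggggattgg
The match in the Stat2 promoter, TTTCAGTTTC, starts 222 bases before the start site, at chr10:128270276-128270285. Both strands were searched for the ISRE letters and for the GAS letters TTCNNNGAA in all 32851 promoters of the table, of which 3.44% held the first and 8.3% the second. Promoters of all 9 members were found, with 2 for Stat5b, and the Stat2 promoter was the only one with a match to the ISRE letters and none had a match to the GAS letters. A match is a description of the letters in this window and not a binding site.

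Pooled over 1 to 3 weeks and over samples with and without a fresh dose, Stat2 and Stat3 carried more transcripts in cells kept in IFNγ than in BSA controls of both lines, and Jak2 did so in YUMM2.1 by a smaller margin. Without a fresh dose, Stat2 at 3 weeks in CT26 was the only value of a member that passed against the control of the same week in edgeR. The receptor chains, Jak1, Tyk2, Stat5b and Stat6 did not pass the test in any comparison of IFNγ with its control. Levels are given in CPM, which are counts scaled to the total of their sample. Differences are log2 fold changes from edgeR's quasi-likelihood test, fitted over the 15 groups of a line on the genes that passed a filter on low counts, 9589 for YUMM2.1 and 8516 for CT26, with Benjamini-Hochberg adjustment over all genes of the comparison and a threshold of 0.05. All 9 members passed the filter on low counts in YUMM2.1 and 8 did in CT26, where Stat5b did not. Some called members reached the cut-off of the filter only in IFNγ samples. In YUMM2.1 these were Stat2 and Jak2, with highest controls of 5.91 and 6.38 CPM. In CT26 they were Stat2 and Stat3, with highest controls of 4.77 and 6.56 CPM. With no filter, the pooled calls of Stat2 and Stat3 held in both lines and that of Jak2 in YUMM2.1 was lost.

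**Figure D1:**
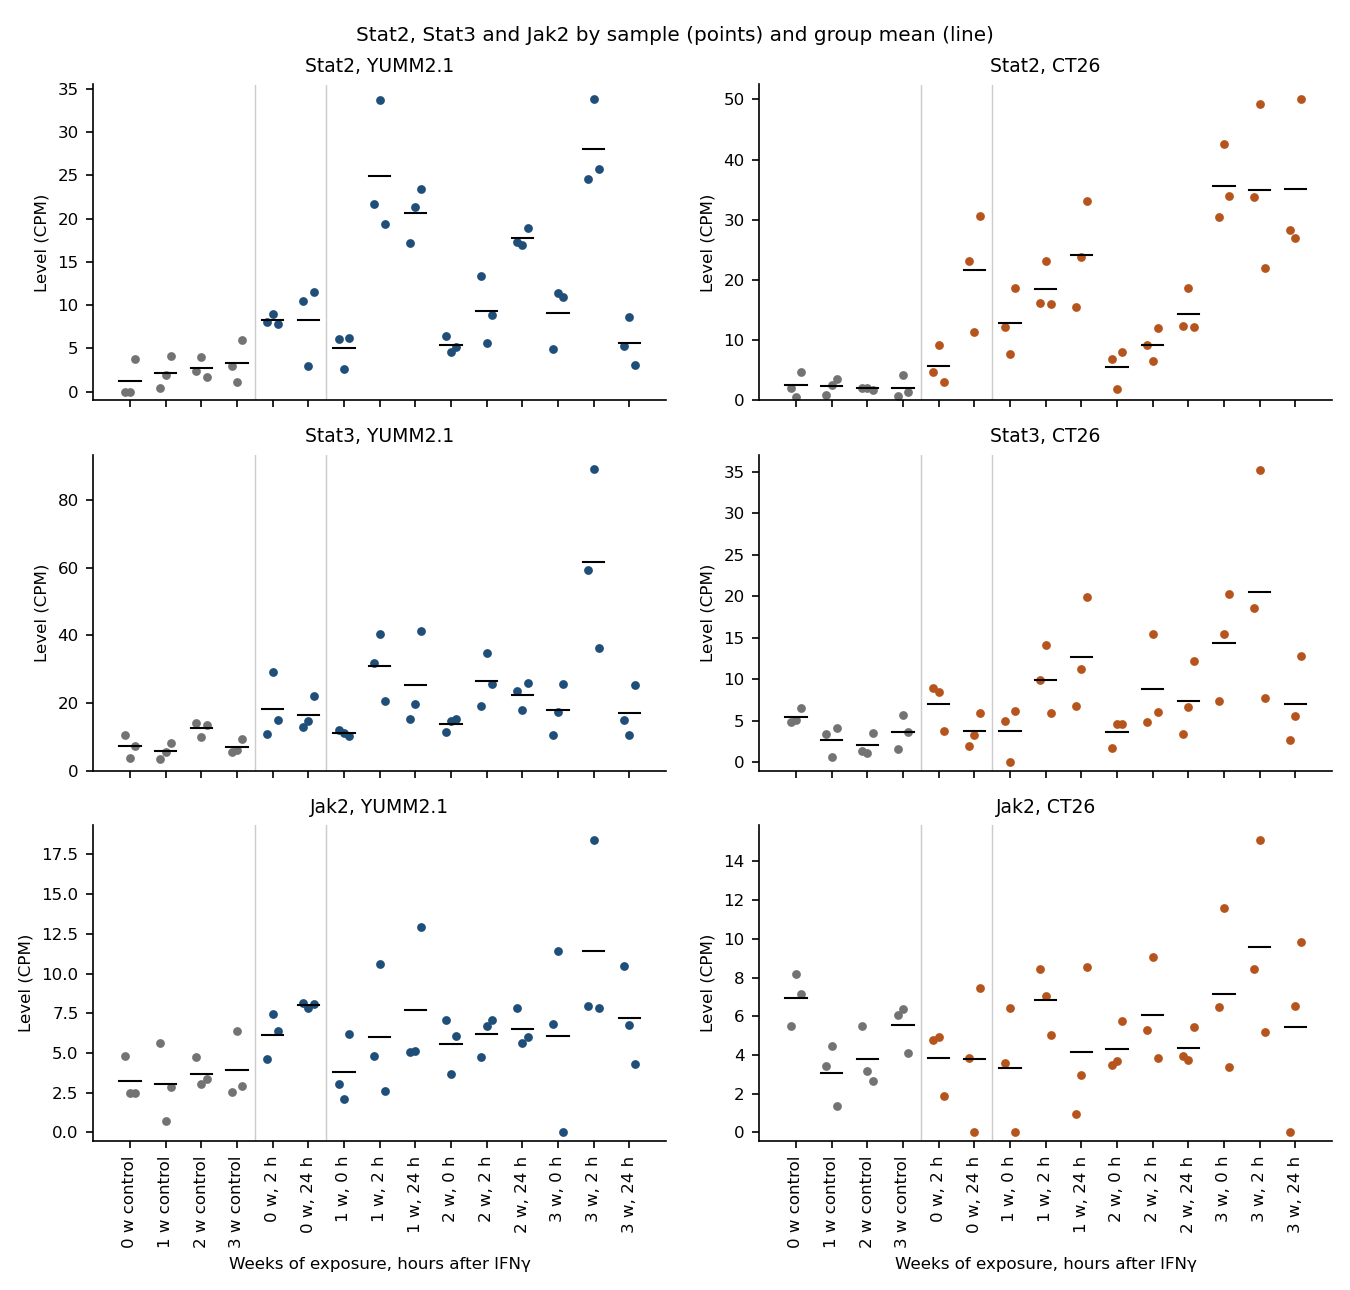
Level in CPM (vertical axes, linear) of Stat2, Stat3 and Jak2 in each sample of YUMM2.1 (left, blue) and CT26 (right, orange), by weeks of exposure and hours after IFNγ; grey points are BSA controls and black lines are means of 3 samples. In CT26, 31 of 33 Stat2 values with IFNγ lie above the highest of the 12 controls at 4.77 CPM, and in YUMM2.1 the tallest Stat3 group is the one at 3 weeks with 2 h of fresh IFNγ, with a mean of 61.6 CPM.

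The comparison with the most samples set the mean of the 9 IFNγ groups of 1 to 3 weeks, of which 6 had a fresh dose, against the mean of the 3 controls of the same weeks. In YUMM2.1, 3 of 9 members were higher in it and 0 were lower, beside 5.38% of all tested genes higher and 6.85% lower. In CT26, 2 of 8 members were higher and 0 lower, beside 10.8% and 11.2% of all tested genes. The members had a median log2 difference of 0.06 in YUMM2.1 against 0.28 in CT26, beside 0.0044 and -0.00051 over all tested genes. In CT26, scaling by library totals in place of TMM normalization shifted the log2 differences of this comparison by 0.127, the offset between the 2 sets of scaling factors. Jak1 then also passed there, with a log2 difference of 0.60 (adjusted p = 0.0326, edgeR).

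**Figure D2:**
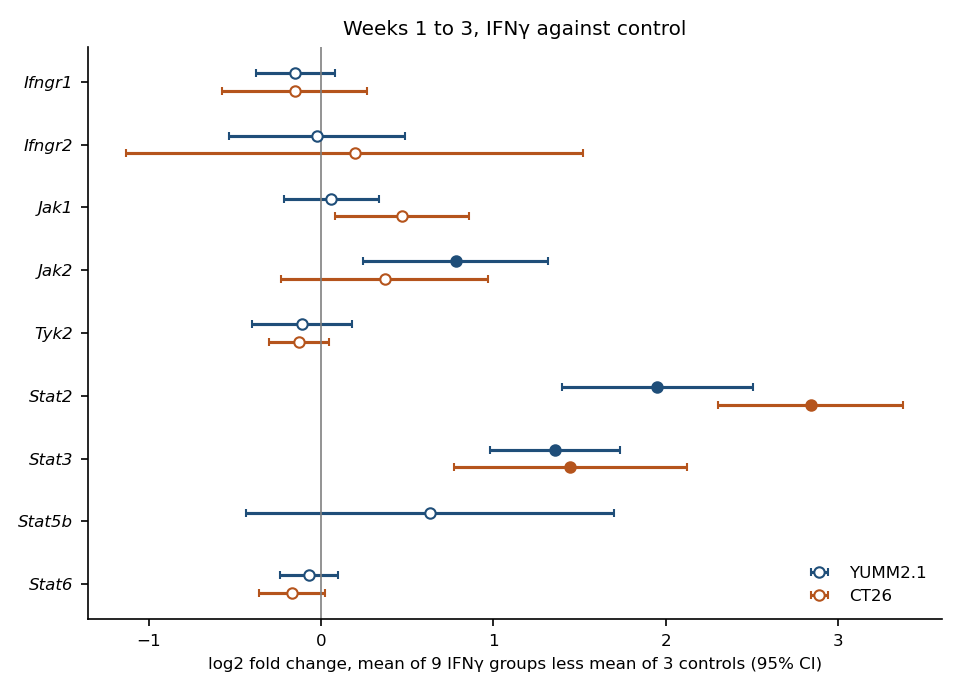
Log2 fold change of each member between cells kept in IFNγ for 1 to 3 weeks, 6 of 9 groups with a fresh dose, and their BSA controls (horizontal axis), with 95% confidence intervals, in YUMM2.1 (blue) and CT26 (orange); filled points passed an adjusted p of 0.05 in edgeR. Stat2 and Stat3 lie to the right of 0 in both lines, at 1.95 and 1.36 in YUMM2.1 and at 2.84 and 1.44 in CT26, and Stat5b was not tested in CT26.

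Ifngr1, the chain that binds IFNγ, was not called in any comparison of IFNγ with its control in either line. In YUMM2.1 it ran from 17.2 to 32.3 CPM, with a median of 24.3, over the 12 controls and from 12.8 to 36.3 CPM, with a median of 23.5, over the 33 IFNγ samples. In CT26 the controls ran from 4.22 to 16.6 CPM (median 10.9) and the IFNγ samples from 3.87 to 31.0 CPM (median 9.30). Taken over all samples, the 2 sets overlap almost wholly in each line. Without a fresh dose, YUMM2.1 at 1 week had 34.1, 27.1 and 31 CPM, all above its controls at 23.4, 24.5 and 24 CPM. CT26 at 3 weeks had 11.1, 16.8 and 16.9 CPM, all above its controls at 10.6, 8.52 and 6.41 CPM. In both cases the samples at 2 h of fresh IFNγ lay below those without it. At the other weeks the samples without a fresh dose overlapped their controls. The pooled log2 difference was -0.15 in YUMM2.1 (95% CI -0.38 to 0.08) and -0.15 in CT26 (95% CI -0.57 to 0.27), so a pooled fall or rise of Ifngr1 of more than 0.57 lies outside both intervals.

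Ifngr2, the chain that brings Jak2 to the receptor, had few counts. It ran from 2.16 to 8.86 CPM in YUMM2.1 controls and from 0.713 to 14.6 CPM with IFNγ, and from 0.759 to 4.53 CPM in CT26 controls and from 0 to 13.6 CPM with IFNγ. The pooled log2 difference was -0.02 in YUMM2.1 (95% CI -0.53 to 0.49) and 0.20 in CT26 (95% CI -1.13 to 1.52). In CT26 after 1 week without rechallenge all 3 samples had 0 counts of Ifngr2, while the 1-week controls had 3, 3 and 10 counts. Set against 3 counts over the group of 0, the 1-week controls were 2.69-fold higher. The 1-week groups with 2 h and 24 h of fresh IFNγ were 3.47-fold and 3.88-fold higher. The 3 counts allow for counting error in the group of 0 alone, so these folds are no lower bounds. None of these differences passed in edgeR (adjusted p = 0.265 against the control, 0.21 at 2 h and 0.0767 at 24 h), although all 3 samples lay apart from the other group in each, and 1 of the 3 samples at 0 was among the shallow libraries.

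Ifngr1 was also one of the members whose level differed between the lines. In the 0-week controls it stood at 28.4, 17.2 and 25.4 CPM in YUMM2.1 and at 6.17, 12.5 and 12.5 CPM in CT26, so the lines do not overlap. The log2 difference was 1.05 ± 0.32 (SE), a 2.07-fold higher level in YUMM2.1 (adjusted p = 0.005, edgeR, 90 samples fitted together on 10339 genes), and it was 0.82 with an adjusted p of 0.0536 without replicate 1 of the CT26 control. Tyk2, the kinase of the type I interferon receptor, went the other way, with 30, 20.9 and 18 CPM in YUMM2.1 and 79.5, 67.8 and 63.2 CPM in CT26. All YUMM2.1 samples were below all CT26 samples, and the log2 difference was -1.74 ± 0.25 (SE; adjusted p = 6.32e-09, edgeR). Of the 8 members tested, 1 was higher and 1 lower in YUMM2.1, beside 25.9% and 20.1% of all tested genes, so a difference of this kind was common between these lines. Library totals in place of TMM shifted this comparison by 0.173 and added Ifngr2 (log2 difference 1.62, adjusted p = 0.0458) and Stat6 (0.45, adjusted p = 0.0224), giving 3 higher and 1 lower. The lines differ in tissue, genetic background and culture history, which cannot be told apart.

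**Figure D3:**
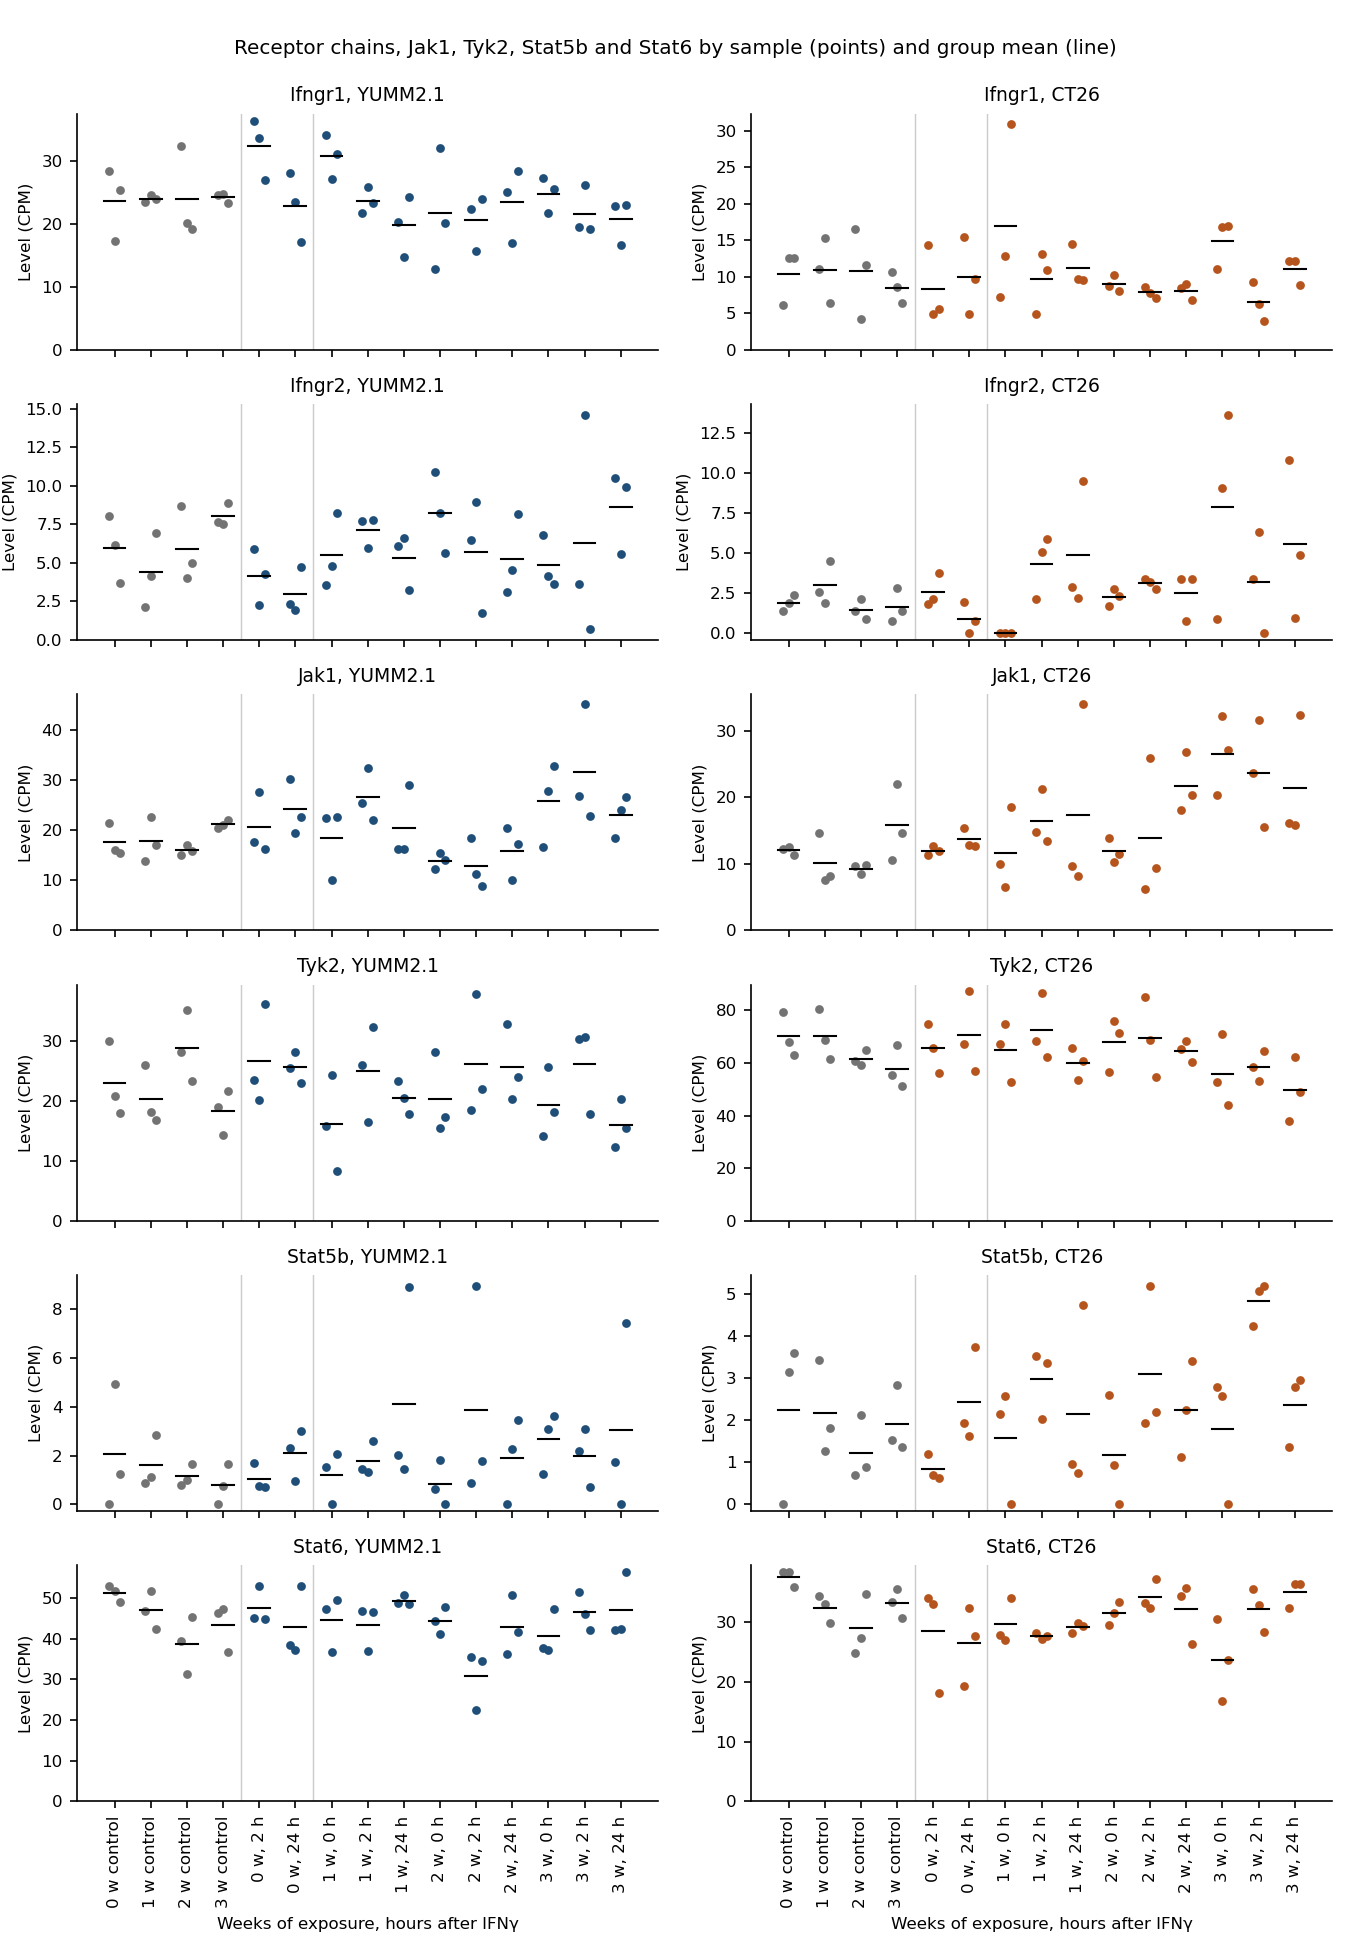
Level in CPM (vertical axes, linear) of Ifngr1, Ifngr2, Jak1, Tyk2, Stat5b and Stat6 in each sample of YUMM2.1 (left) and CT26 (right), by weeks of exposure and hours after IFNγ; grey points are BSA controls, coloured points IFNγ samples and black lines means of 3 samples. Ifngr2 is at 0 in all 3 CT26 samples of 1 week at 0 h, and Tyk2 runs from 37.8 to 87.3 CPM in CT26 and from 8.26 to 38.0 CPM in YUMM2.1.

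Among the kinases, Jak1 ran from 13.9 to 22.6 CPM in YUMM2.1 controls and from 8.86 to 45.3 CPM with IFNγ, and 14 of the 33 IFNγ samples lay above the highest control. Its pooled log2 difference was 0.06 in YUMM2.1 (95% CI -0.22 to 0.33). In CT26, where controls ran from 7.63 to 22.0 CPM and IFNγ samples from 6.25 to 34.1 CPM, it was 0.47 (95% CI 0.08 to 0.86, adjusted p = 0.0752, edgeR). Tyk2 was level in both lines, with pooled differences of -0.11 (95% CI -0.40 to 0.18) in YUMM2.1 and -0.13 (95% CI -0.30 to 0.05) in CT26.

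Jak2, the kinase of the Ifngr2 chain, was the kinase that passed the test. In YUMM2.1 it ran from 0.753 to 6.38 CPM, with a median of 2.98, over the 12 controls and from 0 to 18.4 CPM, with a median of 6.71, over the 33 IFNγ samples, of which 18 lay above the highest control. Naive YUMM2.1 cells had 4.82, 2.46 and 2.48 CPM as controls and 8.16, 7.82 and 8.11 CPM after 24 h of IFNγ. These groups do not overlap, and the log2 difference of 1.19 ± 0.57 (SE) did not pass (adjusted p = 0.69, edgeR). The pooled difference was 0.78 ± 0.27 (SE), a 1.72-fold higher level (adjusted p = 0.0454, edgeR). This call was near its threshold: it held without 16 of the 36 single libraries in turn, was lost without at least 1 library of each of the 12 groups, controls included, with adjusted p up to 0.128, and passed in 3 of 9 alternative fits. With the replicate number as a block it was 0.77 (adjusted p = 0.0528). In CT26, Jak2 ran from 1.36 to 8.16 CPM in controls and from 0 to 15.1 CPM with IFNγ, and the pooled difference of 0.37 (95% CI -0.23 to 0.97) did not pass (adjusted p = 0.405, edgeR).

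Stat2, the partner of Irf9, had the highest pooled difference of the members tested in both lines. In CT26 the 0-week controls had 2.06, 0.627 and 4.77 CPM, naive cells 4.79, 9.17 and 3.13 CPM after 2 h of IFNγ, and 23.1, 11.3 and 30.6 CPM after 24 h. The 24 h samples all lie above the controls, while the 2 h samples overlap them. At 24 h the log2 difference was 3.14 ± 0.49 (SE), an 8.84-fold higher level (adjusted p = 1.25e-05, edgeR, higher in 3 of 3 samples), and 1 of 8 members passed, beside 1.77% of all tested genes higher and 0.27% lower. At 2 h it was 1.19 ± 0.57 (SE) and did not pass (adjusted p = 1, edgeR), beside 0.235% of all genes higher and 0% lower, and both times share the same controls. Without replicate 3 of the 0-week control, the highest of the 3, the 24 h difference was 4.03 (adjusted p = 1.23e-05).

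With longer exposure, Stat2 in CT26 was high before any fresh IFNγ was given. The 3-week controls had 0.759, 4.26 and 1.37 CPM, and cells after 3 weeks in IFNγ had 30.5, 42.6 and 33.9 CPM without rechallenge, 33.8, 49.2 and 22.0 CPM at 2 h and 28.3, 27.0 and 50.0 CPM at 24 h. The 9 IFNγ samples of 3 weeks all lie above the controls and overlap each other. Against the 3-week control, the difference without rechallenge was 3.86 ± 0.49 (SE), a 14.5-fold higher level (adjusted p = 1.29e-07, edgeR), and 4.64 without replicate 2 of that control (adjusted p = 2.56e-07). It was the only one of 8 members to pass at 3 weeks, beside 3.44% of all tested genes higher and 3.79% lower, and the replicate 3 sample of that IFNγ group is shallow.

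At 1 week Stat2 in CT26 had 0.857, 2.54 and 3.63 CPM in controls and 12.2, 7.72 and 18.6 CPM in IFNγ, and at 2 weeks 2.07, 2.11 and 1.78 CPM in controls and 6.94, 1.85 and 8.06 CPM in IFNγ. All 3 IFNγ samples lie above the controls at 1 week and 1 of the 3 lies among them at 2 weeks. The differences were 2.07 ± 0.55 (SE; adjusted p = 0.0693, edgeR) and 1.45 ± 0.65 (SE; adjusted p = 0.409, edgeR), and neither passed, beside 0.658% and 0.928% of all genes higher and 0.0705% and 0.74% lower. The 1-week value passed with DESeq2 (2.14, adjusted p = 0.0218), with no filter on low counts (2.03, adjusted p = 0.0147), with the replicate block (2.16, adjusted p = 0.0426) and without replicate 2 (2.27, adjusted p = 0.0495). The mean level of the groups at 0 h was thus 12.8 CPM at 1 week, 5.62 CPM at 2 weeks and 35.7 CPM at 3 weeks, beside 1.99 to 2.48 CPM in the controls, and it did not rise evenly with the weeks.

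Fresh IFNγ did not give a call for Stat2 in CT26 at any week. At 24 h it gave a log2 difference of 0.96 (95% CI 0.10 to 1.81) at 1 week, 1.25 (95% CI 0.37 to 2.13) at 2 weeks and 0.02 (95% CI -0.70 to 0.74) at 3 weeks, beside 3.14 in naive cells. The 24 h response at 3 weeks was smaller than the naive one by a log2 difference of -3.13 ± 0.62 (SE; adjusted p = 0.00106, edgeR test of the difference itself), and 1 of 8 members was lower in this test, beside 1.09% of all tested genes lower and 0.106% higher. That value was -4.01 without replicate 3 of the 0-week control (adjusted p = 0.000392), and it did not pass without replicate 1 of every group (-3.01, adjusted p = 0.158). The 2 h response at 3 weeks was -0.02 (95% CI -0.74 to 0.71), and its difference from the naive 2 h response, -1.21 ± 0.67 (SE), did not pass (adjusted p = 0.949, edgeR). The matching 24 h contrasts at 1 and 2 weeks against naive cells were not tested.

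In YUMM2.1, Stat2 in the 0-week controls had 0, 0 and 6 counts, equal to 0, 0 and 3.72 CPM. Naive cells had 8.01, 8.96 and 7.80 CPM after 2 h and 10.5, 2.93 and 11.5 CPM after 24 h. All 2 h samples and 2 of the 3 samples at 24 h lie above the controls. The log2 differences were 2.51 ± 0.67 (SE; adjusted p = 0.174, edgeR) at 2 h and 2.55 ± 0.68 (SE; adjusted p = 0.0548, edgeR) at 24 h, and neither passed. DESeq2 called the 24 h value (2.60, adjusted p = 0.0414), and edgeR called both when no filter on low counts was set, which gave adjusted p of 0.0214 and 0.00975. Of the 18 values of members in naive YUMM2.1 cells, 0 passed in edgeR, 5 had an unadjusted p under 0.05 and 1 passed in DESeq2, while 0.24% and 0.855% of all genes were higher at 2 h and 24 h and 0% and 0.0313% were lower.

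Cells of YUMM2.1 kept in IFNγ without rechallenge had Stat2 at 6.11, 2.66 and 6.20 CPM at 1 week, 6.42, 4.57 and 5.14 CPM at 2 weeks and 4.95, 11.4 and 10.9 CPM at 3 weeks, beside 1-week, 2-week and 3-week control means of 2.14, 2.68 and 3.34 CPM. The differences from the control of the same week were 0.95, 1.02 and 1.13, and none passed (adjusted p = 0.918, 0.859 and 0.495, edgeR). Over all 27 values of members at 1, 2 and 3 weeks without rechallenge, 0 passed in edgeR and in DESeq2 and 2 had an unadjusted p under 0.05, while 0.657%, 0.897% and 0.72% of all genes were higher at the 3 times and 0.073%, 0.219% and 0.25% lower.

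After fresh IFNγ at 1 week, Stat2 in YUMM2.1 stood at 21.7, 33.7 and 19.4 CPM at 2 h and at 17.2, 21.3 and 23.4 CPM at 24 h. Both groups lie wholly above the 1-week samples without rechallenge. The difference was 2.32 ± 0.50 (SE) at 2 h, a 4.98-fold higher level (adjusted p = 0.00739, edgeR, 3 of 3 samples), and 2.11 ± 0.51 (SE) at 24 h, a 4.31-fold higher level (adjusted p = 0.0159, edgeR, 3 of 3 samples). One of 9 members passed at each time, beside 0.501% and 1.12% of all tested genes higher and 0.115% and 0.302% lower. The 2 h call was lost without replicate 2 of the group without rechallenge (1.94, adjusted p = 0.154) or of the 2 h group (2.08, adjusted p = 0.0973). The 24 h call was lost without replicate 1 (adjusted p = 0.0521) or replicate 2 (adjusted p = 0.178) of the group without rechallenge and without replicate 2 (adjusted p = 0.0702) or replicate 3 (adjusted p = 0.0569) of the 24 h group.

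At 2 weeks the 24 h samples, with 17.3, 16.9 and 18.9 CPM, lay above the samples without rechallenge, and the 2 h samples, with 13.4, 5.59 and 8.86 CPM, overlapped them. The differences were 1.71 ± 0.49 (SE; adjusted p = 0.144, edgeR) at 24 h and 0.92 ± 0.51 (SE; adjusted p = 0.94, edgeR) at 2 h, where 0.532% and 0.417% of all genes were higher and 0.0834% and 0.0104% lower. At 3 weeks the order was turned, with 24.6, 33.8 and 25.7 CPM at 2 h and 5.26, 8.61 and 3.09 CPM at 24 h. The 2 h samples lie above and the 24 h samples overlap those without rechallenge, with differences of 1.71 ± 0.50 (SE; adjusted p = 0.0819, edgeR) and -0.49 ± 0.58 (SE; adjusted p = 1, edgeR). The 24 h response at 3 weeks differed from the naive one by -3.04 ± 0.91 (SE), nearly the value of CT26, but did not pass (adjusted p = 0.186, edgeR), beside 0% of all genes higher and 0.615% lower. At 24 h of fresh IFNγ after 3 weeks, 0% of all genes were called.

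**Figure D4:**
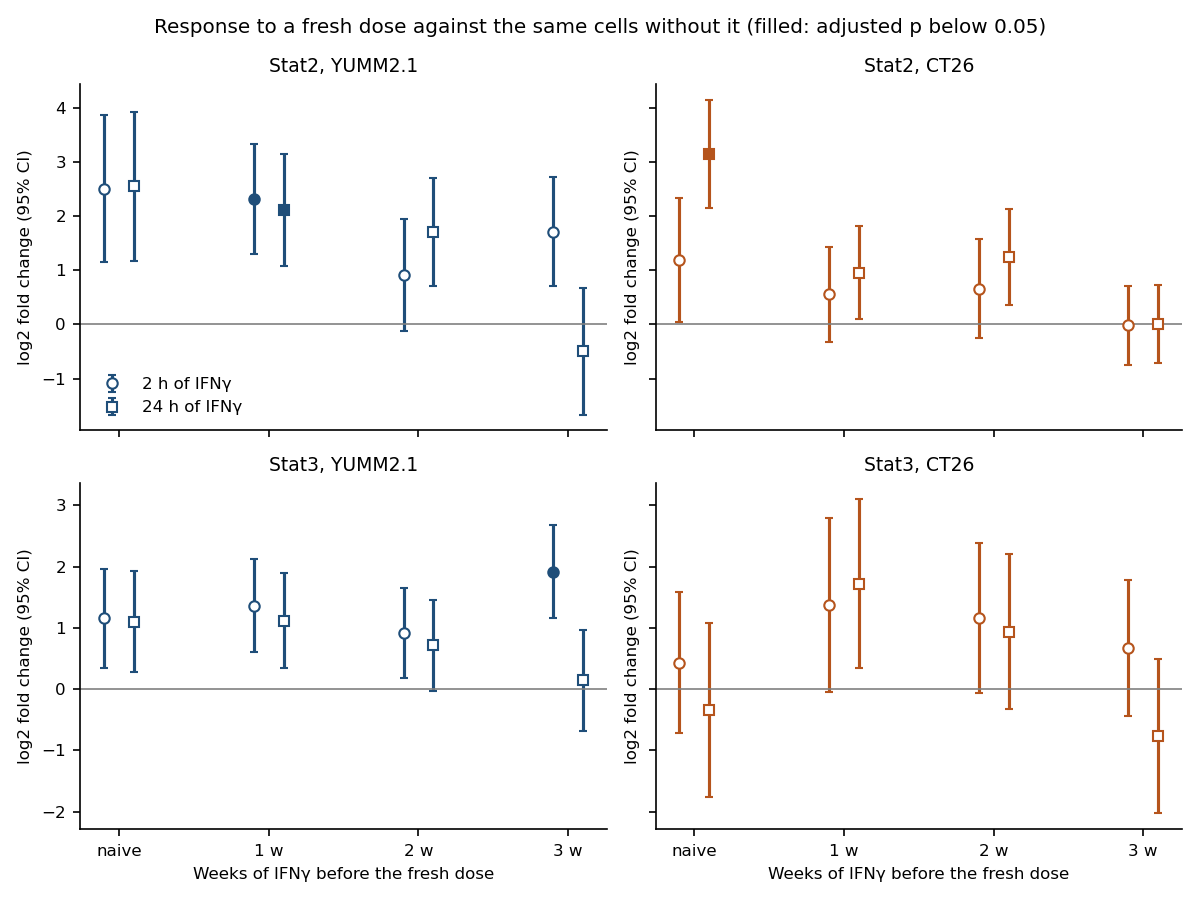
Log2 fold change of Stat2 (top) and Stat3 (bottom) after 2 h (circles) and 24 h (squares) of fresh IFNγ against cells of the same week without it (vertical axes), in naive cells and after 1, 2 and 3 weeks in IFNγ, with 95% confidence intervals, in YUMM2.1 (left) and CT26 (right); filled points passed an adjusted p of 0.05 in edgeR. In CT26 the 24 h value of Stat2 is 3.14 in naive cells and 0.02 at 3 weeks, and in YUMM2.1 the 2 h value of Stat3 at 3 weeks is 1.92.

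Pooled over 1 to 3 weeks, Stat2 was higher with IFNγ in both lines. The controls of all weeks ran from 0 to 5.91 CPM (median 2.12) in YUMM2.1 and from 0.627 to 4.77 CPM (median 2.06) in CT26, and the IFNγ samples, naive cells included, from 2.66 to 33.8 CPM (median 10.5) and from 1.85 to 50.0 CPM (median 16.2). Of the 33 IFNγ samples, 25 in YUMM2.1 and 31 in CT26 lay above the highest control. The pooled log2 difference was 1.95 ± 0.28 (SE), 3.87-fold, in YUMM2.1 (adjusted p = 6.73e-07, edgeR) and 2.84 ± 0.27 (SE), 7.16-fold, in CT26 (adjusted p = 1.59e-11, edgeR). Both passed in every alternative fit and without any single library. Between the lines, the 3-week effect of IFNγ on Stat2 was lower in YUMM2.1 by -2.81 ± 0.79 (SE), which did not pass (adjusted p = 0.201, edgeR).

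Stat3, the factor of interleukin-6 signalling, had its highest group mean in YUMM2.1 at 2 h of fresh IFNγ after 3 weeks. The 3-week controls had 5.52, 6.01 and 9.52 CPM, cells after 3 weeks in IFNγ 10.5, 17.5 and 25.5 CPM without rechallenge, and 59.4, 89.0 and 36.3 CPM at 2 h and 14.9, 10.5 and 25.4 CPM at 24 h. Among the 3-week samples, those at 2 h lie above all others, and the 24 h samples overlap those without rechallenge. The difference at 2 h was 1.92 ± 0.38 (SE), a 3.78-fold higher level (adjusted p = 0.00182, edgeR, 3 of 3 samples), and at 24 h 0.15 ± 0.41 (SE; adjusted p = 1, edgeR). Stat3 was the only one of 9 members to pass at 2 h, beside 0.876% of all tested genes higher and 0.209% lower, and the call was lost without replicate 1 of the group without rechallenge (1.55, adjusted p = 0.101).

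In naive YUMM2.1 cells Stat3 had 10.7, 3.69 and 7.44 CPM in controls, 11, 29.1 and 14.9 CPM at 2 h and 12.8, 14.7 and 22.2 CPM at 24 h. All treated samples lie above the controls, with differences of 1.16 ± 0.40 (SE; adjusted p = 0.87, edgeR) and 1.10 ± 0.41 (SE; adjusted p = 0.435, edgeR). The 2 h response was 1.37 ± 0.37 (SE; adjusted p = 0.0842, edgeR) at 1 week and 0.92 ± 0.36 (SE; adjusted p = 0.603, edgeR) at 2 weeks, with 3 of 3 samples above in each. Without rechallenge it differed from the control of the same week by 0.88, 0.12 and 1.00 at 1, 2 and 3 weeks, and none passed (adjusted p = 0.791, 1 and 0.359, edgeR). The 2 h response at 3 weeks exceeded the naive one by 0.76 ± 0.57 (SE), which did not pass (adjusted p = 0.87, edgeR).

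In CT26, Stat3 had few counts, at most 28 in a sample. The 0-week controls had 4.80, 5.02 and 6.56 CPM, and naive cells after 24 h of IFNγ 1.93, 3.23 and 5.98 CPM, a log2 difference of -0.34 (95% CI -1.76 to 1.09). The 3-week controls had 1.52, 5.68 and 3.66 CPM and cells after 3 weeks in IFNγ 7.40, 15.5 and 20.3 CPM. The latter do not overlap the controls, and the difference of 1.58 ± 0.64 (SE) did not pass (adjusted p = 0.125, edgeR). At 1 and 2 weeks without rechallenge the means were 3.74 and 3.66 CPM, beside 2.72 and 2.00 CPM in their controls. The 0-week control mean, 5.46 CPM, is not part of the pooled comparison. At 2 h of fresh IFNγ the means were 9.95, 8.78 and 20.6 CPM at 1, 2 and 3 weeks. At 24 h they were 12.6, 7.42 and 7.01 CPM.

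Pooled over the weeks, Stat3 was higher with IFNγ by 1.36 ± 0.19 (SE), 2.56-fold, in YUMM2.1 (adjusted p = 3.77e-07, edgeR) and by 1.44 ± 0.33 (SE), 2.72-fold, in CT26 (adjusted p = 0.00138, edgeR). Over all weeks and naive cells, 25 of 33 IFNγ samples in YUMM2.1 and 17 of 33 in CT26 lay above the highest control, at 14.2 and 6.56 CPM. Both values passed in every alternative fit and without any single library. The 3′ end of Stat3 (chr11:100885098-100939540, minus strand, GENCODE M21, GRCm38) overlaps that of Stat5a on the other strand, and, with the strand setting of the counting not stated, reads there cannot be told apart.

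Stat6, the factor of interleukin-4 signalling, ran from 31.2 to 53.0 CPM in YUMM2.1 controls and from 22.4 to 56.3 CPM with IFNγ, and the pooled difference was -0.07 (95% CI -0.24 to 0.10). In CT26, 0 of 33 IFNγ samples lay above the highest control at 38.4 CPM. There the 3-week controls had 33.4, 35.5 and 30.7 CPM and cells after 3 weeks in IFNγ 30.5, 16.8 and 23.7 CPM. The IFNγ samples are all below the controls, and the difference of -0.64 ± 0.23 (SE) did not pass (adjusted p = 0.0757, edgeR). The pooled difference was -0.17 (95% CI -0.36 to 0.02).

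Stat5b, the factor of growth hormone signalling, had at most 12 counts in a YUMM2.1 sample and 8 in a CT26 sample, and 0 counts in 6 and 4 of the 45 samples. Its pooled difference in YUMM2.1 was 0.63 (95% CI -0.44 to 1.70). With no filter on low counts it could be fitted in CT26, where the pooled difference was 0.37 (adjusted p = 1.00, edgeR). Neither value passed, and the interval in YUMM2.1 is wide.

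Across all comparisons within a line, the calls came from Stat2, Stat3 and Jak2. Fresh IFNγ after 1 to 3 weeks gave 3 calls among 54 values of members in YUMM2.1, all higher, and 0 among 48 in CT26, where 7 had an unadjusted p under 0.05 and DESeq2 called 0. Of all genes in CT26, 0.364% and 0.928% were higher at 2 h and 24 h of fresh IFNγ after 1 week, 0.294% and 0.599% after 2 weeks and 0.0117% and 0% after 3 weeks, and between 0% and 0.388% were lower, with 0.0117% at 2 h and 0.0587% at 24 h after 2 weeks. In the tests of 3 weeks against naive cells, 0 of 27 values passed in YUMM2.1 in edgeR and in DESeq2, with 1 at an unadjusted p under 0.05, and 1 of 24 in CT26, the Stat2 value given above. Of all genes, 0.115% were called for the 2 h response and 0.0521% for the level without rechallenge in YUMM2.1, and 0.211% and 0.0117% in CT26. The controls of 1, 2 and 3 weeks differed from the 0-week control in 0 of 27 values in YUMM2.1 and 0 of 24 in CT26 in edgeR and in DESeq2, with 1 and 0 values at an unadjusted p under 0.05, so culture time alone gave no call among members. Of all genes, 0.073%, 0.0209% and 0.521% were called for the controls of 1, 2 and 3 weeks in YUMM2.1 and 0.0117%, 0.247% and 0.916% in CT26. Of the 32 values set between the lines, the 2 calls were the levels of Ifngr1 and Tyk2 in the 0-week control, and 0 of the 24 differences in response passed in edgeR or DESeq2, with 3 at an unadjusted p under 0.05, beside 0% of all genes for naive 2 h, 0.087% for naive 24 h and 0.106% for 3 weeks.

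The other genes of the pathway were read from a list of 40 receptors, STATs, inhibitors and cofactors, and the fits held 31 of them for YUMM2.1 and 27 for CT26. At 24 h of IFNγ in naive cells, 2 were higher in YUMM2.1, the transcription factor Irf1 and the STAT-binding protein Nmi, and 3 in CT26, Irf1, Nmi and Usp18, a negative regulator of type I interferon signalling. None was lower at that time. Irf1 was higher by 2.82 ± 0.23 (SE) in YUMM2.1 and 2.31 ± 0.27 (SE) in CT26, and Nmi by 4.24 ± 0.36 (SE) and 2.76 ± 0.19 (SE). In CT26, the 24 h responses of Irf1, Nmi and Usp18 at 3 weeks were lower than in naive cells, as was that of Stat2, and in YUMM2.1 those of Irf1 and Nmi were. Of all tested genes, 1.09% in CT26 and 0.615% in YUMM2.1 were lower in this test. In the pooled comparison 8 of 31 were higher and 1 lower in YUMM2.1, beside 5.38% and 6.85% of all tested genes, and 7 of 27 were higher and 2 lower in CT26, beside 10.8% and 11.2%. Over the whole list the median log2 difference was 0.21 for YUMM2.1 and 0.41 for CT26, beside 0.0044 and -0.00051 over all tested genes. The inhibitor Socs1 was higher in both lines, by 0.73 ± 0.20 (SE) in YUMM2.1 (adjusted p = 0.0107, edgeR) and 2.15 ± 0.50 (SE) in CT26 (adjusted p = 0.00134, edgeR), and Pdlim2, which directs the breakdown of STAT proteins, was lower in both, by -0.72 ± 0.07 (SE; adjusted p = 6.64e-11, edgeR) and -0.61 ± 0.10 (SE; adjusted p = 1.83e-05, edgeR). Socs1 had few counts. In CT26 it had 1, 1 and 6 counts in 3-week controls and 6, 3 and 3 after 3 weeks in IFNγ without rechallenge. In YUMM2.1 these were 13, 12 and 18 counts in controls and 16, 10 and 0 in IFNγ. Leaving out single libraries was not tested for Socs1 or Pdlim2.

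The genes whose pattern was most like that of a member were ranked by Pearson's r over the 15 group means of log2 CPM, among 7662 genes in YUMM2.1 and 6174 in CT26, and the points share libraries and controls. For Stat2 these were Thbs1 (r = 0.927), Ifi203 (r = 0.925) and Rnf213 (r = 0.923) in YUMM2.1 and Samd9l (r = 0.978), Ddx60 (r = 0.971) and Mndal (r = 0.965) in CT26. For Stat3 they were Thbs1 (r = 0.912), Lif (r = 0.901) and Irf1 (r = 0.898) in YUMM2.1 and Cd44 (r = 0.911), Trps1 (r = 0.907) and Rac1 (r = 0.906) in CT26. For Jak2 in YUMM2.1 they were Otud4 (r = 0.874), Oasl2 (r = 0.855) and Mitd1 (r = 0.844).

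In the genome, Stat2 (chr10:128270559-128292849, plus strand) and Stat6 (chr10:127642986-127660957, plus strand) lie 609601 bases apart on chromosome 10, and Stat3 and Stat5b 34373 bases apart on chromosome 11 (GENCODE M21, GRCm38). Jak2 is at chr19:29251828-29313080 on the plus strand. In the comparisons within a line, Stat6 was not called in either line and Stat5b, tested in YUMM2.1 alone, was not called. The 3′ ends of Jak1, Tyk2 and Stat6 overlap Raver2, 1700084C06Rik and Nab2 on the other strand, and the limit given for Stat3 applies to reads in those overlaps. The overlap is short for Jak1, whose 3′ end is at chr4:101152367 while Raver2 ends at 101152370. It is short for Stat6 too, whose 3′ end is at chr10:127660957 while Nab2 reaches to 127660918. For Tyk2 (chr9:21104068-21131243) it is long, as 1700084C06Rik runs from 21091755 to 21128393.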

How the data were processed

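RNA of 90 YUMM2.1 and CT26 samples was measured by 3′ digital gene expression. The authors deposited whole-number counts per gene and sample, not normalized and not pooled. The submitters' processing notes name Salmon 0.13.1 and the build mm10, and the study imported counts with tximport. The annotation release, the strand setting and the use of molecular identifiers are not given in the sources used here, so PCR copies may be counted and intervals from counts cover counting error only. The study discarded 1 YUMM2.1 and 4 CT26 samples that are not named, and all were kept.

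Groups came from the sample labels, 0 columns were left unused, and 53668 of 53697 identifiers matched a symbol. No replicates were identical (90 pairs). Low counts limit precision at totals of 274719 to 3161276 per sample. In R 4.3.3, edgeR 4.0.16 was run with filterByExpr, TMM and its quasi-likelihood test, with 15 groups per line in 1 model, or both lines together for differences between them. No covariate was used. The code was tested on simulated data for 24 h of IFNγ in naive cells. A simulated log2 difference of 1 was recovered for 42% of changed genes in YUMM2.1 and 45% in CT26. Among those with few counts it was recovered for 4.08% and 10.6%, and a difference of 2 for 56.5% and 74.4%. Ifngr2, Jak2, Stat2, Stat3 and Stat5b had median counts of at most 18 per sample in both lines. In CT26, Ifngr1 and Jak1 were as low, with medians of 12 and 17. For these members in these lines the lack of a call does not show a lack of response. Alternatives were DESeq2 1.42.0, library totals, no filter, only the groups compared, a block for replicate number, fits without each number or without the shallow libraries, an adjusted p of 0.1 and, added after seeing the data, leaving out single libraries of called values. All 9 members were named, pathway genes as counts with those called or of smallest p, and the 3 nearest patterns per called member. Socs1 and Pdlim2 were singled out after their values were seen. The members and lists were chosen with earlier results of these data known.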

Additional observations from a re-analysis of the deposited data

Results flagged for a closer look

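The 24 h response of Stat2 to fresh IFNγ in CT26 differed between naive cells and cells exposed for 3 weeks, by the test of that difference: the value was -3.13 ± 0.62 (SE; adjusted p = 0.00106, edgeR's quasi-likelihood test). In naive cells the 3 treated samples rose above the 3 controls, with means of 21.7 and 2.48 CPM, and at 3 weeks the means were 35.1 CPM at 24 h and 35.7 CPM without rechallenge. The groups at 3 weeks include 1 shallow library, and the value without it was -3.13 (adjusted p = 0.00171).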

How the results depend on the processing

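Of 13 calls of single members, 13 remained under DESeq2, library totals and without the shallow libraries, 12 with no filter, with only the groups compared and with the replicate block, and 7, 9 and 12 without replicate 1, 2 and 3. No called value changed sign in these fits. Calls in naive YUMM2.1 cells went from 0 to 1 with DESeq2, 1 at an adjusted p of 0.1 and 2 with no filter, and ranged from 0 to 2 when a replicate was left out. Calls for IFNγ against the control of the same week in CT26 went from 1 to 2 with DESeq2, 3 at an adjusted p of 0.1, 2 with no filter and 2 with the replicate block, and ranged from 1 to 2 without a replicate. Calls after fresh IFNγ in YUMM2.1 went from 3 to 5 at an adjusted p of 0.1 and 5 with no filter, and ranged from 0 to 3 without a replicate, and in CT26 they went from 0 to 1 at an adjusted p of 0.1. Calls between the lines went from 2 to 4 at an adjusted p of 0.1 and 4 with library totals, and ranged from 1 to 3 without a replicate. The difference of chronic from naive responses in CT26 ranged from 0 to 1 without a replicate. Fits with fewer samples have less precision, and for the other settings the cause was not tested.

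Samples that share a replicate number showed little common deviation: the median correlation of their deviations was 0.000491 for YUMM2.1 and 0.00605 for CT26. Of these pairs, 7.62% in YUMM2.1 and 14% in CT26 exceeded 0.1. In 0 of 14 comparisons of a line did all 3 pairs exceed 0.1. With 3 numbers to choose from, 13 of 45 YUMM2.1 and 21 of 45 CT26 samples correlated best with their own. Some sharing in CT26 was therefore not excluded. The replicate block lost the Jak2 call in YUMM2.1 and added that of Stat2 at 1 week in CT26 (2.16, adjusted p = 0.0426). Without replicate 3, the fitted Stat2 values of naive YUMM2.1 cells (6.72 and 6.30) rest on controls with no counts and are no bounds.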

Other observations

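Of 4 endothelial markers, Pecam1, an adhesion protein of vessel walls and platelets, was the only one with a count in CT26, at 252 to 315 CPM in controls and 223 to 493 CPM with IFNγ, while Cdh5, Kdr and Tek were at 0. In YUMM2.1 it led a summed level of 311 to 415 CPM in controls.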
